A study of Mus musculus with 18 samples.

Results

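The ATF4 amino acid response genes are 35 mouse genes: the transcription factor ATF4, proteins that work with it or restrain it, and genes it is known to act on in amino acid synthesis, amino acid transport and cell stress. They were chosen by name, and all 35 were found among the 21015 genes of the deposited table, each in 1 row. All 35 also passed the filter on low counts that left 16125 genes for testing. Their RNA was followed in tumours of MC38-OVA, a colon carcinoma line of the mouse that carries the antigen ovalbumin, with 18 libraries in 6 groups of 3.

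The KO-Clonidine, KO-Guanabenz and KO-Control tumours grew in hosts with the genotype entry ADRA2A-/-, which lack the alpha2A-adrenergic receptor. The WT-Clonidine, WT-Guanabenz and WT-Control tumours grew in wild-type hosts. The implanted cells were the same line in all groups and keep their own Adra2a gene, so only host cells of the tumour lacked the receptor in the KO groups. Clonidine and guanabenz, which are both agonists of alpha2-adrenergic receptors, were injected into the abdomen each day, and the control groups received PBS by the treatment protocol, although their own treatment entry reads Untreated. The KO-Guanabenz libraries carry that same entry, Untreated, against their titles. The titles were followed, and the treatment of these 3 libraries is in conflict wherever they are used. The mice were 10 weeks old and tumours were taken 7 days after treatment, and the labels used here give neither doses nor the strain of the hosts.

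ATF4 is the effector of the integrated stress response. Amino acid shortage, endoplasmic reticulum stress and other stresses each activate a kinase that phosphorylates the translation factor eIF2, which slows general translation but favours translation of the Atf4 mRNA, so ATF4 activity can change while Atf4 mRNA does not. ATF4 binds DNA together with C/EBP proteins at a composite site, the C/EBP-ATF response element, and raises the genes that make, import and save amino acids. In tumours the response is known for supporting growth where nutrients run short.

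The element is shown here in the promoters of members that hold it, because it is the sequence through which ATF4 is known to reach its targets. Its letters TGATGNAAN were searched on both strands in RefSeq promoter windows of GRCm38.p6, which run from 250 bases before to 50 bases after a gene start. Of the 35 members 29 had a window, and 9 of these (31.0%) held the element, against 1215 of 27025 genes with a window (4.5%). The stretches below are from the 6 members whose element lies wholly before the gene start and whose p in WT-Clonidine against WT-Control was smallest; capitals mark the element, which reads TGATGNAAN or its reverse complement, and each stretch is written in the direction of the gene.
Asns (minus strand, chr6:7693210-7693252): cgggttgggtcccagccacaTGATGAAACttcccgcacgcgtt
Chac1 (plus strand, chr2:119351028-119351076): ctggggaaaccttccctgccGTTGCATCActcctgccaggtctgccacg
Vldlr (plus strand, chr19:27216799-27216847): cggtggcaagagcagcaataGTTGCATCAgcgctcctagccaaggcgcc
Nupr1 (minus strand, chr7:126625553-126625601): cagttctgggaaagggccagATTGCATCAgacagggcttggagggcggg
Pycr1 (minus strand, chr11:120643823-120643871): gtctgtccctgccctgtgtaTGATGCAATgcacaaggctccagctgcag
Slc7a11 (minus strand, chr3:50443633-50443681): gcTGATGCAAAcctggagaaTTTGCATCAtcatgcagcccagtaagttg
The Asns element starts 23 bases before the gene start, and those of Nupr1 and Pycr1 start 111 and 103 bases before it. Slc7a11 holds 2 elements on opposite strands, 66 and 48 bases before the start. Jdp2 also held the element before its start, in Slc1a4 it crosses the start, and in Trib3 it lies 13 bases after it. A match is a description of the letters in these windows and says nothing of binding in these tumours.

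Libraries held between 54683838 and 491137160 estimated counts, the deepest being WT-Control 3 (491137160) and WT-Clonidine 2 (275081429). Adra2a, the disrupted gene, lay between 0.0917 and 0.293 CPM (counts per 1000000 counts of the library) in the 9 KO libraries. The range in the 9 WT libraries, 0.286 to 0.589 CPM, overlapped this slightly. Adra2a was lower in KO over the 3 treatments (log2 change -1.22, SE 0.20, adjusted p = 0.0163). Within single treatments it was lower but did not pass, and the drop was smallest under clonidine (log2 change -0.79, SE 0.33, adjusted p = 0.19). RNA of Y-linked genes was scored as found where their mean was above 1 CPM. It was found in 0 of the 3 libraries of KO-Clonidine, in all 3 of WT-Control and in 2 of 3 in each other group. The 11 epithelial markers summed to between 5.32 and 16.3 CPM in every library, with the intestinal transcription factor Cdx2 at 0 in all libraries of 5 groups and not of KO-Clonidine, while 10 fibroblast markers summed to at least 13560 CPM and 12 macrophage and monocyte markers to at least 5746 CPM.

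Members differed widely in level. On the scale of CPM per kilobase of the longest protein-coding transcript, averaged over the 18 libraries, Phgdh, the first enzyme of serine synthesis, was the highest at 1023, ahead of Atf5 at 144, Atf4 at 141 and Psat1 at 125. The lowest were the cationic amino acid transporter Slc7a3 at 0.299, the stress cytokine Gdf15 at 0.526 and the cystine-glutamate exchanger Slc7a11 at 0.981. Slc7a3 and Gdf15 had as few as 38 and 31 counts in a library, so counting error bears on both. The highest library stood 1.24 times above the lowest for Cebpg, 2.83 times for Trib3 and 4.79 times for Gdf15, whose WT-Guanabenz 3 library alone reached 2.20 CPM.

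By group means, 26 of the 35 members were lowest in WT-Clonidine, 3 in KO-Guanabenz, 3 in WT-Control, 2 in WT-Guanabenz and 1 in KO-Control. The highest mean was in KO-Clonidine for 16 members, in KO-Guanabenz for 8, in KO-Control for 8, in WT-Control for 2 and in WT-Guanabenz for 1. The median member, as log2 CPM minus its mean over the 18 libraries, was -0.18, -0.20 and -0.16 in the 3 WT-Clonidine libraries, the lowest values of any library. It was highest in KO-Clonidine 3 at 0.22, KO-Control 2 at 0.21 and WT-Control 3 at 0.18.

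**Figure D1:**
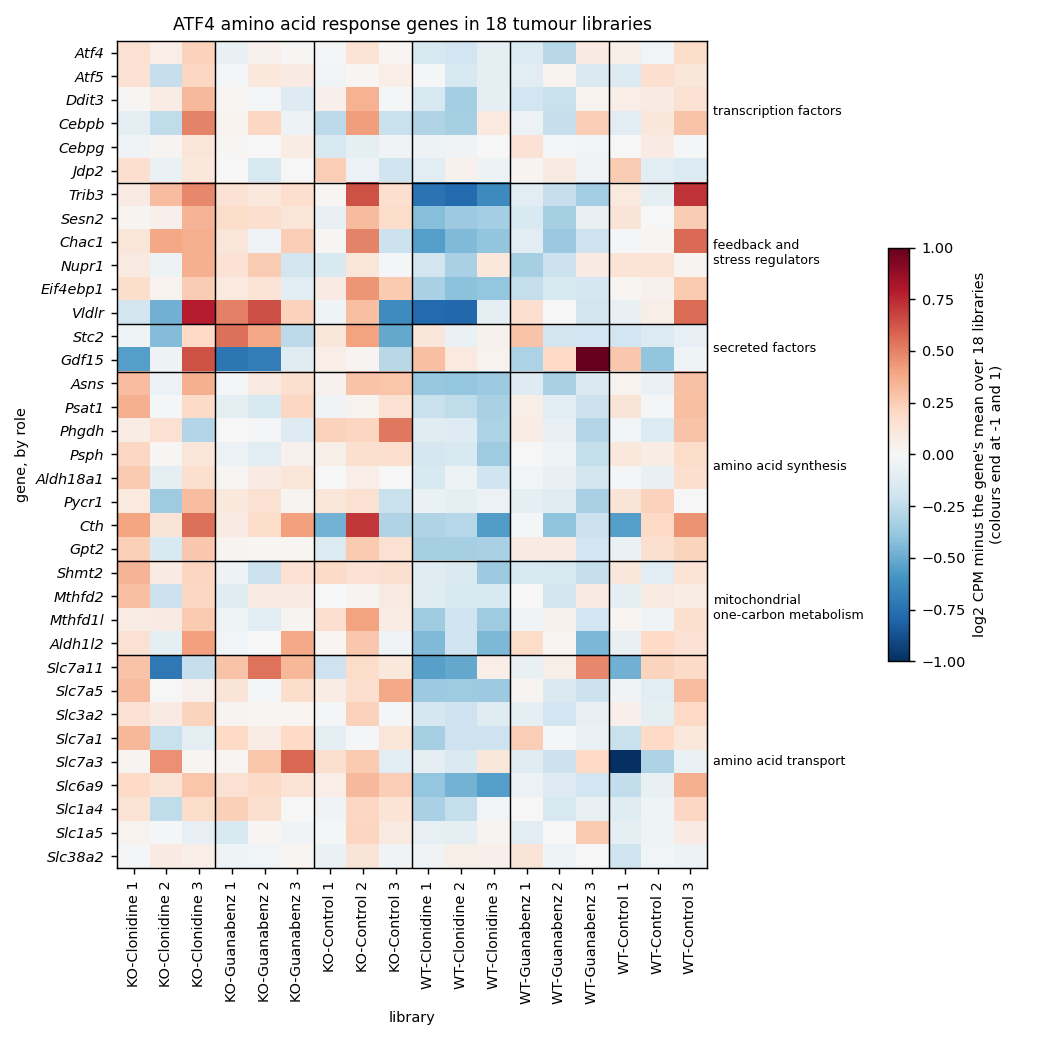
Each row is a member, grouped by role, and each column a library; colour gives log2 CPM minus the gene's mean over the 18 libraries, with the scale ending at -1 and 1. Blue runs through most rows of the 3 WT-Clonidine columns, Trib3, Slc6a9 and Asns among them, while Stc2, Gdf15, Jdp2 and Slc38a2 do not share it.

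The comparison of KO-Clonidine with WT-Clonidine asks how the members stood under clonidine when host cells lacked the receptor. All 13 members that passed the test were higher in KO-Clonidine, and they came from every role except transcription factors and secreted factors. Of the 35 members, 33 had a positive log2 change and the median was 0.30, while the median over all 16125 genes was -0.008. The 13 called members are 37.1% of the list, beside 1.82% of all genes called higher, and 0 members were among the 0.682% of genes called lower. In RNA from whole tumours, fewer cells of a type and less RNA per cell cannot be told apart.

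Among the feedback and stress regulators all 6 lay higher in KO-Clonidine and 4 passed the test. Trib3, a pseudokinase that ATF4 induces and that restrains it in turn, showed the largest change of any member: it had 37.8, 44.4 and 49.99 CPM in the KO-Clonidine libraries, against 21.4, 20.9 and 23.1 CPM in the WT-Clonidine libraries. The lowest KO-Clonidine library exceeded the highest WT-Clonidine library, and the means were 44.1 ± 6.08 and 21.8 ± 1.15 CPM (SD, n = 3 each). Trib3 was higher in KO-Clonidine (log2 change 1.02, SE 0.18, adjusted p = 0.0181), while KO-Control and WT-Control had means of 44.08 and 43.74 CPM. Eif4ebp1, a repressor of cap-dependent translation, had 133, 121 and 140.5 CPM in the KO-Clonidine libraries, against 94.5, 88.95 and 90.5 CPM in the WT-Clonidine libraries, again without overlap (log2 change 0.53, SE 0.09, adjusted p = 0.0181). Sesn2, a leucine sensor upstream of mTORC1, had 32.6, 33.1 and 40.5 CPM in the KO-Clonidine libraries, against 23.8, 24.8 and 25.2 CPM in the WT-Clonidine libraries (log2 change 0.53, SE 0.10, adjusted p = 0.0217). Chac1, which degrades glutathione, was higher as well (log2 change 0.76, SE 0.18, adjusted p = 0.036). The lipoprotein receptor gene Vldlr (log2 change 0.66, SE 0.29, adjusted p = 0.225) and the stress-induced chromatin protein Nupr1 (log2 change 0.27, SE 0.14, adjusted p = 0.293) did not pass.

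Amino acid synthesis genes lay higher in KO-Clonidine in 8 of 8 cases, and 4 passed. Asns, which makes asparagine and is a well-known target of the element shown above, had 126, 97.5 and 129.9 CPM in the KO-Clonidine libraries, against 78.1, 77.5 and 78.9 CPM in the WT-Clonidine libraries. The WT-Clonidine libraries had an SD of 0.677 CPM and lay below all KO-Clonidine libraries, whose SD was 17.6 CPM. Asns was higher in KO-Clonidine (log2 change 0.59, SE 0.11, adjusted p = 0.02). Psph, which completes serine synthesis, had 55.3, 48.3 and 52.1 CPM in the KO-Clonidine libraries, against 42.6, 43.1 and 37.5 CPM in the WT-Clonidine libraries (log2 change 0.34, SE 0.08, adjusted p = 0.0327). Psat1, the step before it, was higher by 0.45 (SE 0.11, adjusted p = 0.043) and the mitochondrial alanine transaminase Gpt2 by 0.46 (SE 0.12, adjusted p = 0.0453) on the log2 scale. Phgdh, the step that opens the same pathway, overlapped between the groups and did not pass (log2 change 0.18, SE 0.13, adjusted p = 0.474). The proline genes Aldh18a1 (0.25) and Pycr1 (0.12) and the cysteine gene Cth (0.74, SE 0.27) had positive log2 changes that did not pass.

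The 4 genes of mitochondrial one-carbon metabolism, which take serine apart to supply formate and folate units, all lay higher in KO-Clonidine, and 2 passed. Mthfd1l, the mitochondrial formate-releasing enzyme, had 88.2, 88.5 and 100.04 CPM in the KO-Clonidine libraries, against 65.2, 72.9 and 65.4 CPM in the WT-Clonidine libraries (log2 change 0.44, SE 0.09, adjusted p = 0.0217). Shmt2, which splits serine into glycine, had 213, 178 and 195 CPM in the KO-Clonidine libraries, against 155, 152 and 131 CPM in the WT-Clonidine libraries (log2 change 0.42, SE 0.09, adjusted p = 0.0301). Neither gene's groups overlapped. Mthfd2 (log2 change 0.26, SE 0.10, adjusted p = 0.187) and Aldh1l2 (log2 change 0.53, SE 0.16, adjusted p = 0.0838) did not pass.

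Of the 9 transport genes 3 passed and all 9 had positive log2 changes. The glycine transporter Slc6a9 had 35.3, 34.02 and 37.4 CPM in the KO-Clonidine libraries, against 23.6, 22.3 and 21.1 CPM in the WT-Clonidine libraries. Its groups were far apart relative to their spread, and it had the smallest p of all members (log2 change 0.67, SE 0.11, adjusted p = 0.0181). Slc7a5 and Slc3a2, the 2 chains of the large neutral amino acid exchanger, were higher by 0.48 (SE 0.11, adjusted p = 0.0335) and 0.31 (SE 0.08, adjusted p = 0.0415) on the log2 scale. The others ran from 0.02 for the sodium-coupled transporter Slc38a2 and 0.03 for the glutamine transporter Slc1a5 to 0.27 for the cationic transporter Slc7a1, with Slc1a4 at 0.23, Slc7a3 at 0.23 and Slc7a11 at 0.14.

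Atf4 itself had 269, 253 and 284 CPM in the KO-Clonidine libraries, against 217, 212 and 226 CPM in the WT-Clonidine libraries, without overlap, and just missed the threshold (log2 change 0.30, SE 0.08, adjusted p = 0.0588). Among the other transcription factors, the pro-apoptotic Ddit3 (CHOP) had a log2 change of 0.34 (adjusted p = 0.0865), and Cebpb (0.26), Atf5 (0.14), Jdp2 (0.11) and Cebpg (0.07) did not pass. The secreted factors were the only members with negative values, Stc2 at -0.10 (SE 0.22) and Gdf15 at -0.04 (SE 0.38).

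**Figure D2:**
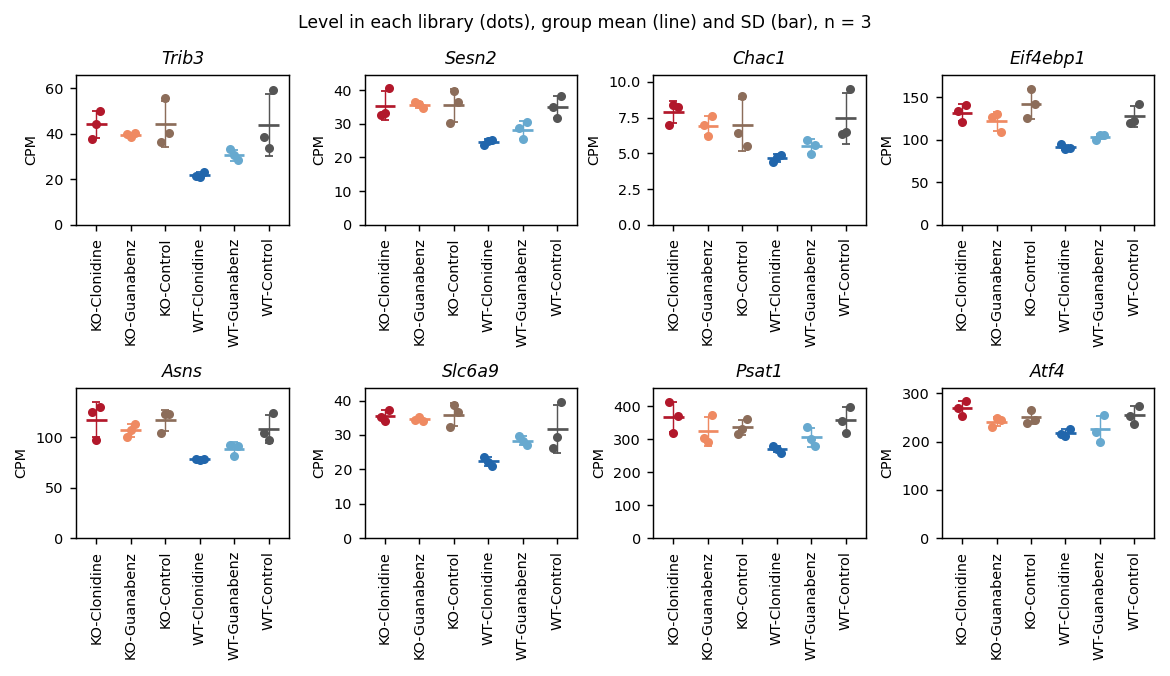
The vertical axes give CPM from 0, with 1 dot per library, a line at the group mean and a bar of 1 SD (n = 3), for 8 members. In Trib3, Sesn2, Chac1, Eif4ebp1, Asns and Slc6a9 the 3 WT-Clonidine dots lie close together below all dots of KO-Clonidine and of WT-Control; for Trib3 they read 21.4, 20.9 and 23.1 CPM.

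Counted at an unadjusted p under 0.05, 20 members were higher in KO-Clonidine, beside 11.1% of all genes, and 0 were lower, beside 8.48%. The groups did not overlap, with KO-Clonidine higher, for 17 members (48.6%), beside 14.2% of all genes. DESeq2 called 16 members higher (4.6% of all genes) and limma-voom, with quality weights for the libraries, 17 (4.73%), each with the same 13 among them. The count rested on single libraries: edgeR called 0 members without KO-Clonidine 3 (5 of all genes called), WT-Clonidine 2 (2 genes) or WT-Clonidine 3 (1 gene), 2 without WT-Clonidine 1 (48 genes) and 5 without KO-Clonidine 1 (70 genes), against 403 genes with all libraries. Calls were thus lost over all genes as well as among the members, whose median stayed between 0.28 and 0.38. Scaling by library totals left 6 members called, all higher. It turned the split over all genes to 43 higher of 249 called, against 293 higher of 403 with TMM. A term for Y-linked transcripts, below the cutoff in all 3 KO-Clonidine libraries, also left 6 members (213 genes, 1.32%). A fit of the compared groups alone left 2 members, of the 4 genes it called.

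In WT-Clonidine against WT-Control, which asks what clonidine did in hosts with the receptor, the members lay lower but none passed. The log2 change was below 0 for 31 of 35, with a median of -0.27 beside 0.003 over all genes. edgeR called 0 members, beside 0% of all genes, and the smallest adjusted p, 0.0665, was shared by 9 genes, of which Trib3 is 1, the fourth of all genes by unadjusted p. By unadjusted p under 0.05, 18 members (51.4%) were lower, beside 6.91% of all genes, and 0 were higher, beside 5.98%. DESeq2 called 11 members, all lower, beside 1.18% of genes called lower, and limma-voom called 12, all lower, beside 2.1%.

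Trib3 had 21.4, 20.9 and 23.1 CPM in the WT-Clonidine libraries, against 38.4, 33.7 and 59.1 CPM in the WT-Control libraries. Every WT-Clonidine library lay below every WT-Control library, of which WT-Control 3 stood highest (log2 change -1.01, SE 0.18, adjusted p = 0.0665). Eif4ebp1 had 94.5, 88.95 and 90.5 CPM in the WT-Clonidine libraries, against 119.6, 122 and 142 CPM in the WT-Control libraries (log2 change -0.48, SE 0.09, adjusted p = 0.0768). Sesn2 had 23.8, 24.8 and 25.2 CPM in the WT-Clonidine libraries, against 35.02, 31.9 and 38.1 CPM in the WT-Control libraries (log2 change -0.51, SE 0.10, adjusted p = 0.0877). In neither gene did the groups overlap. Asns had 78.1, 77.5 and 78.9 CPM in the WT-Clonidine libraries, against 104, 96.9 and 124 CPM in the WT-Control libraries (log2 change -0.47, SE 0.11, adjusted p = 0.11). Psph had 42.6, 43.1 and 37.5 CPM in the WT-Clonidine libraries, against 51.7, 50.6 and 54.5 CPM in the WT-Control libraries (log2 change -0.35, SE 0.08, adjusted p = 0.104). Of these genes too, all WT-Clonidine libraries were the lower ones.

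For Mthfd1l the libraries had 65.2, 72.9 and 65.4 CPM in the WT-Clonidine libraries, against 84.8, 81.4 and 93.3 CPM in the WT-Control libraries (log2 change -0.35, SE 0.09, adjusted p = 0.131). Among the transporters, Slc6a9 had 23.6, 22.3 and 21.1 CPM in the WT-Clonidine libraries, against 26.1, 29.4 and 39.6 CPM in the WT-Control libraries (log2 change -0.51, SE 0.11, adjusted p = 0.105), and Slc7a5 had 164, 166 and 164 CPM in the WT-Clonidine libraries, against 207, 197 and 262 CPM in the WT-Control libraries (log2 change -0.43, SE 0.11, adjusted p = 0.134). The WT-Clonidine values of these 3 genes lay below the WT-Control values, which spread more. Non-overlapping groups with WT-Clonidine lower were found for 19 members (54.3%), beside 9.81% of all genes. The other members ran from -0.72 for Vldlr to 0.36 for Slc7a3, and Gdf15 (0.18), Stc2 (0.17) and Slc38a2 (0.12) were the other ones above 0. Atf4 was at -0.22 (SE 0.08, adjusted p = 0.262). Without WT-Control 2, edgeR called 3 members, all lower, and 55 genes in all (0.339%). The other omissions went the other way, with 0 members called each time. The smallest member adjusted p, 0.0665 with all libraries, was then 0.344 without WT-Control 3 and 0.163 without WT-Control 1. It was 0.237, 0.32 and 0.0944 without WT-Clonidine 1, 2 and 3.

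**Figure D3:**
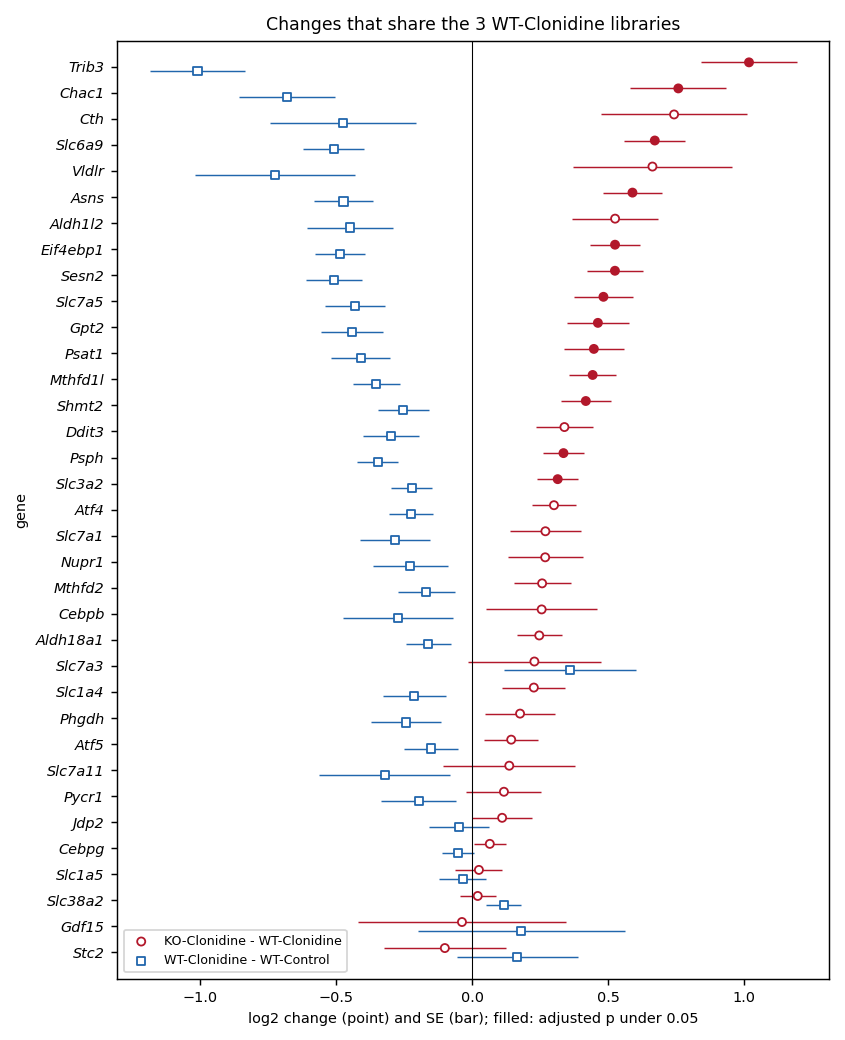
Points are log2 changes and bars 1 SE for all 35 members; red circles are KO-Clonidine minus WT-Clonidine (filled at adjusted p under 0.05) and blue squares WT-Clonidine minus WT-Control. Both series use the same 3 WT-Clonidine libraries, so their opposite signs are not independent; Trib3 reads 1.02 and -1.01.

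For the same drug in hosts without the receptor, no member passed the test. In KO-Clonidine against KO-Control the median member was at 0.03, with 24 of 35 above 0, and without KO-Clonidine 3 it was at -0.06. edgeR called 0 members (0.0186% of all genes), as did DESeq2 (0.18%) and limma-voom (0.0186%). At an unadjusted p under 0.05 there was 1 member higher, beside 2.74% of all genes, and 1 lower, beside 2.78%, shares (2.86% each) near the background. The lower one was Phgdh, with 2016, 2124 and 1563 CPM in the KO-Clonidine libraries, against 2243, 2221 and 2763 CPM in the KO-Control libraries (log2 change -0.34, SE 0.13, adjusted p = 0.877). The higher one was Cebpg, a partner of ATF4 on DNA, with 89.3, 92.95 and 99.2 CPM in the KO-Clonidine libraries, against 81.8, 85.9 and 89.1 CPM in the KO-Control libraries (log2 change 0.13, SE 0.06, adjusted p = 0.901). Trib3 had 37.8, 44.4 and 49.99 CPM in the KO-Clonidine libraries, against 36.3, 55.6 and 40.3 CPM in the KO-Control libraries, which overlapped (log2 change 0.00, SE 0.17, adjusted p = 0.999).

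Whether the effect of clonidine differed between genotypes was tested directly as the effect in KO hosts minus that in WT hosts. The median member was at 0.30 and 29 of 35 lay above 0, but edgeR called 0 members (0% of all genes), limma-voom called 0 members (0.0062% of genes higher) and DESeq2 called 1, Trib3 (0.124% higher). At an unadjusted p under 0.05 there were 18 members above 0, beside 4.87% of all genes, and 0 below, beside 4.07%. Trib3 had the smallest p (log2 change 1.01, SE 0.25, adjusted p = 0.379), followed by Sesn2 (log2 change 0.51, SE 0.15, adjusted p = 0.403), Psat1 (log2 change 0.54, SE 0.15, adjusted p = 0.403) and Chac1 (log2 change 0.85, SE 0.25, adjusted p = 0.404). For Psat1 the KO hosts gave 413, 319 and 369 CPM in the KO-Clonidine libraries, against 316, 331 and 359 CPM in the KO-Control libraries, and the WT hosts 277, 271 and 259 CPM in the WT-Clonidine libraries, against 354, 319 and 398 CPM in the WT-Control libraries. The WT libraries separated and the KO libraries did not. A small p in this comparison picks out that pattern, so it is not separate evidence. Chac1 had the same arrangement, with 6.99, 8.39 and 8.23 CPM in the KO-Clonidine libraries, against 6.45, 9.04 and 5.53 CPM in the KO-Control libraries in KO hosts, and 4.37, 4.72 and 4.89 CPM in the WT-Clonidine libraries, against 6.35, 6.495 and 9.48 CPM in the WT-Control libraries in WT hosts.

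Under guanabenz no member passed the test against the controls in WT hosts. Besides its action at alpha2-adrenergic receptors, guanabenz has been studied as a compound that acts on the phosphatase of eIF2. In WT-Guanabenz against WT-Control, 26 of 35 members lay below 0 with a median of -0.16, which became -0.05 without WT-Control 3. edgeR called 0 members (0% of all genes), as did DESeq2 (1.06%) and limma-voom (0.0372%). By unadjusted p under 0.05, 11 members were lower (31.4%), beside 6.26% of all genes, and 0 were higher, beside 5.18%. Eif4ebp1 had 100.04, 106 and 105 CPM in the WT-Guanabenz libraries, against 119.6, 122 and 142 CPM in the WT-Control libraries (log2 change -0.30, SE 0.09, adjusted p = 0.249). Sesn2 had 28.8, 25.4 and 30.4 CPM in the WT-Guanabenz libraries, against 35.02, 31.9 and 38.1 CPM in the WT-Control libraries (log2 change -0.31, SE 0.10, adjusted p = 0.278). Trib3 had 33.1, 30.5 and 28.2 CPM in the WT-Guanabenz libraries, against 38.4, 33.7 and 59.1 CPM in the WT-Control libraries (log2 change -0.52, SE 0.18, adjusted p = 0.282). The WT-Guanabenz libraries were below the WT-Control libraries in each of these genes. Psph (-0.21), Asns (-0.29), Chac1 (-0.45), Shmt2 (-0.23), Slc3a2 (-0.18), Pycr1 (-0.30), Atf4 (-0.18) and Ddit3 (-0.22) complete the 11, with values that are log2 changes.

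In KO hosts, the libraries titled KO-Guanabenz had a median member at -0.03 against KO-Control, with 15 of 35 above 0. edgeR called 0 members (0.0124% of all genes), as did DESeq2 (2.83%) and limma-voom (2.13%). At an unadjusted p under 0.05 there were 4 lower (11.4%), beside 8.37% of all genes, and 0 higher, beside 6.74%. Those 4 were Mthfd1l, with 80.9, 77.8 and 84.9 CPM in the KO-Guanabenz libraries, against 93.8, 110.3 and 88.1 CPM in the KO-Control libraries (log2 change -0.26, SE 0.09, adjusted p = 0.189), Phgdh (log2 change -0.38, SE 0.13, adjusted p = 0.192), Eif4ebp1 (log2 change -0.23, SE 0.09, adjusted p = 0.259) and Psph (log2 change -0.17, SE 0.08, adjusted p = 0.294). Phgdh had 1906, 1889.5 and 1749 CPM in the KO-Guanabenz libraries, against 2243, 2221 and 2763 CPM in the KO-Control libraries, of which KO-Control 3 was the highest library of the study for this gene. The difference of the guanabenz effects, KO minus WT, had a median of 0.13, with 28 of 35 above 0. edgeR called 0 members there (0.0062% of all genes), as did DESeq2 (0.0806%) and limma-voom (0.0124%). An unadjusted p under 0.05 was reached by 1 member above 0, Sesn2 (0.32, SE 0.15), beside 2.58% of all genes. It was reached by 1 member below 0, Gdf15 (-1.18, SE 0.55), beside 3.13%. The Gdf15 value rested on WT-Guanabenz 3 and was -0.42 without that library.

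Under guanabenz, and with the treatment of the KO-Guanabenz libraries in conflict, KO-Guanabenz against WT-Guanabenz had 30 of 35 members above 0 and a median of 0.15. edgeR called 0 members (0.0186% of all genes), as did DESeq2 (0.149%) and limma-voom (0.0124%). At an unadjusted p under 0.05 there were 4 higher (11.4%), beside 3.63% of all genes, and 1 lower, beside 4.53%. Sesn2 led with 36.3, 35.96 and 34.7 CPM in the KO-Guanabenz libraries, against 28.8, 25.4 and 30.4 CPM in the WT-Guanabenz libraries (log2 change 0.34, SE 0.10, adjusted p = 0.528). Slc6a9 had 34.3, 35.3 and 34.01 CPM in the KO-Guanabenz libraries, against 29.6, 28.2 and 27.1 CPM in the WT-Guanabenz libraries (log2 change 0.29, SE 0.11, adjusted p = 0.57). The groups did not overlap in either gene, nor, with KO-Guanabenz higher, in 12 members altogether (34.3%), beside 6.26% of all genes. Asns (0.27) and Eif4ebp1 (0.23) were the other members higher. The lower one, Gdf15, had 0.458, 0.467 and 0.694 CPM in the KO-Guanabenz libraries, against 0.607, 0.866 and 2.20 CPM in the WT-Guanabenz libraries, where WT-Guanabenz 3 is the one high value (log2 change -1.21, SE 0.40, adjusted p = 0.554); without that library the log2 change was -0.45.

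Without drug no member passed the test between the genotypes. In KO-Control against WT-Control the median member was at 0.01, with 19 of 35 above 0. edgeR called 0 members (0.0062% of all genes), as did DESeq2 (0.105%) and limma-voom (0.0062%). With unadjusted p under 0.05, 1 member was higher, beside 2.25% of all genes, and 0 were lower, beside 1.43%. That member was Phgdh, with 2243, 2221 and 2763 CPM in the KO-Control libraries, against 1883, 1746 and 2338 CPM in the WT-Control libraries; the groups overlapped (log2 change 0.28, SE 0.13, adjusted p = 1).

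**Figure D4:**
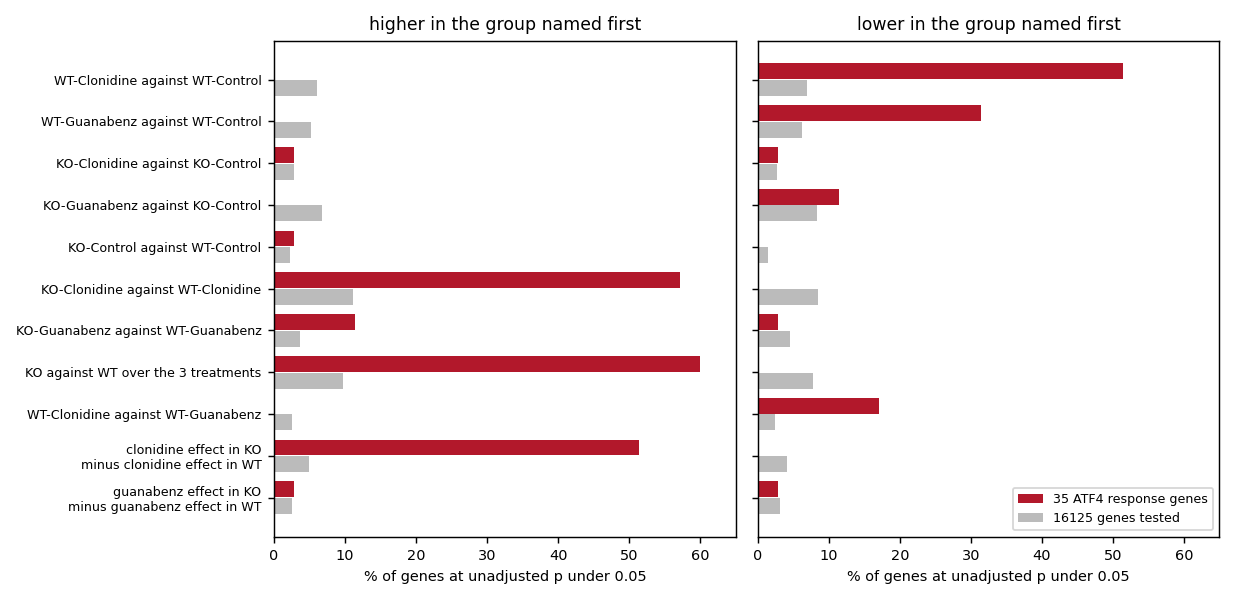
Bars give the percent of the 35 members (red) and of the 16125 genes tested (grey) with an unadjusted p under 0.05, higher (left) or lower (right) in the group named first, for the 11 comparisons. Red stands far above grey on the left for KO-Clonidine against WT-Clonidine (57.1% and 11.1%) and on the right for WT-Clonidine against WT-Control (51.4% and 6.91%), while the bars for clonidine in KO hosts are level.

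Averaged over the 3 treatments, 4 members were higher in KO than in WT tumours: a glycine transporter, a translation repressor, the asparagine synthetase and a leucine sensor. They were Slc6a9 (log2 change 0.38, SE 0.06, adjusted p = 0.0192), Eif4ebp1 (log2 change 0.30, SE 0.05, adjusted p = 0.0216), Asns (log2 change 0.32, SE 0.06, adjusted p = 0.0377) and Sesn2 (log2 change 0.29, SE 0.06, adjusted p = 0.0404), or 11.4% of the list beside 0.285% of all genes called higher, and 0 members were among the 0.13% called lower. Trib3 missed the threshold (log2 change 0.47, SE 0.10, adjusted p = 0.051). Of the 35 members 33 lay above 0, with a median of 0.15, and at an unadjusted p under 0.05 there were 21 higher (60% of the list), beside 9.65% of all genes, and 0 lower, beside 7.78%. DESeq2 called 10 members higher (2.66% of all genes) and limma-voom 9 (1.51%), each with the same 4 among them. The average includes KO-Guanabenz and holds the clonidine difference given above, so it is not separate evidence. Without KO-Clonidine 3 (15 of all genes called), KO-Guanabenz 1 (7 genes), WT-Clonidine 3 (15 genes) or WT-Control 2 (20 genes), edgeR called 0 members, and with library totals it called 2 members and 9 higher of 38 genes, against 46 higher of 67 genes with TMM.

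Clonidine is an imidazoline and guanabenz an aminoguanidine, and both carry a dichlorophenyl ring. Whether their doses matched is not known from the labels, so their values are set side by side. In WT-Clonidine against WT-Guanabenz 32 of 35 members lay below 0, with a median of -0.13 beside -0.005 over all genes. edgeR called 0 members (0% of all genes), as did DESeq2 (0.0248%) and limma-voom (0.0062%). At an unadjusted p under 0.05 there were 6 members lower (17.1%), beside 2.48% of all genes, and 0 higher, beside 2.57%. Slc6a9 had 23.6, 22.3 and 21.1 CPM in the WT-Clonidine libraries, against 29.6, 28.2 and 27.1 CPM in the WT-Guanabenz libraries (log2 change -0.34, SE 0.11, adjusted p = 0.957). Trib3 had 21.4, 20.9 and 23.1 CPM in the WT-Clonidine libraries, against 33.1, 30.5 and 28.2 CPM in the WT-Guanabenz libraries (log2 change -0.49, SE 0.18, adjusted p = 0.957). The WT-Clonidine libraries were the lower ones for both. Gpt2 (-0.32), Mthfd1l (-0.24), Slc7a1 (-0.31) and Slc7a5 (-0.26) were the others, as log2 changes. In the same comparison 0 of 22 hypoxia and glycolysis genes lay above 0 (median -0.44, 7 lower by unadjusted p), and all 11 T cell genes did (median 0.61, 5 higher by unadjusted p). The 10 endothelial genes had a median of 0.33, with 7 higher by unadjusted p, and the part of these lists in the members' values was not tested.

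Related genes outside the list were described the same way. The 20 cytosolic aminoacyl-tRNA synthetases load amino acids onto tRNA, and ATF4 is known to induce many of them. In KO-Clonidine against WT-Clonidine 19 lay above 0, with a median of 0.26, and 8 were called higher, beside 1.82% of all genes. Sars (0.43, SE 0.07, adjusted p = 0.0181), Nars (0.32, SE 0.06, adjusted p = 0.0181) and Cars (0.34, SE 0.08, adjusted p = 0.0295) led them. Of 20 other genes known as ATF4 targets, 18 were above 0, with a median of 0.32, and 5 were called higher, beside the same 1.82%. Ddit4, an inhibitor of mTORC1, led them (0.94, SE 0.14, adjusted p = 0.0181), then Nars and Cars, which stand in both lists. The 16 genes of eIF2, its kinases and its phosphatase had 13 above 0, 0 called and a median of 0.10. By unadjusted p, 4 of them (25%) were higher, beside 11.1% of all genes, and Ppp1r15a, the inducible phosphatase subunit, had a log2 change of 0.60 (SE 0.19, adjusted p = 0.104). Of 19 genes of amino acid sensing by mTORC1, 13 were above 0, 0 were called and 3 were higher by unadjusted p (15.8%, near the 11.1% of all genes), with a median of 0.04.

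In WT-Clonidine against WT-Control 18 of the 20 synthetases lay below 0 with a median of -0.14. By unadjusted p, 9 (45%) were lower, beside 6.91% of all genes. The other ATF4 targets had 17 of 20 below 0, a median of -0.28 and 10 (50%) lower by unadjusted p, beside the same 6.91%. edgeR called 0 genes of either list, as it called 0 of all genes.

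Other gene groups also differed between the same groups of libraries. In KO-Clonidine against WT-Clonidine all 22 genes of hypoxia and glycolysis lay above 0 (median 0.58, 2 called higher, beside 1.82% of all genes). Their summed level ran from 9786 to 14150 CPM in KO-Clonidine, against 7654 to 8950 CPM in WT-Clonidine. Ddit4, Vegfa and Ero1a stand in both the hypoxia list and the list of other ATF4 targets. The 11 T cell genes measured lay below 0 (median -0.74), with Cd5 and Cd6 called lower, beside 0.682% of all genes. They summed to 25.9 to 39.1 CPM in KO-Clonidine, against 47.3 to 62.7 CPM in WT-Clonidine. The 5 erythroid genes measured lay above 0 (median 3.37, 0 called, 5 higher by unadjusted p, beside 11.1% of all genes). They summed to 405 to 1617 CPM in KO-Clonidine, against 88.8 to 177 CPM in WT-Clonidine. The 10 skeletal muscle genes lay below 0 (median -0.65, 0 called, 2 lower by unadjusted p, or 20% beside 8.48%). Their sums were 88.6 to 229 CPM in KO-Clonidine, against 203 to 300.5 CPM in WT-Clonidine. In WT-Clonidine against WT-Control the hypoxia genes had 0 of 22 above 0 (median -0.59, 15 lower by unadjusted p, beside 6.91% of all genes). The T cell genes had 11 of 11 above 0 (median 0.83, 9 higher by unadjusted p, beside 5.98%), with 0 genes of either list called. Of the genes of these 4 lists analysed here, 0 were at 0 in all 3 libraries of any group; 1 of 12 listed T cell genes and 3 of 8 listed erythroid genes were not analysed here. The other cell type lists were read in KO-Clonidine against WT-Clonidine, with 0 genes called in each. Of 10 endothelial genes 3 were lower by unadjusted p (30%, median -0.24), beside 8.48% of all genes. Of 7 neutrophil genes 2 (28.6%, median 0.14) and of 10 fibroblast genes 2 (20%, median 0.09) were higher, beside 11.1%. Also, 1 fibroblast gene (10%) was lower. Macrophage and monocyte genes had a median of -0.09 and epithelial genes -0.2. The part of hypoxia genes and of cell makeup in the members' differences was not tested. Y-linked status was only fitted as a term, which left 6 members called in KO-Clonidine against WT-Clonidine, against 13 without it.

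**Figure D5:**
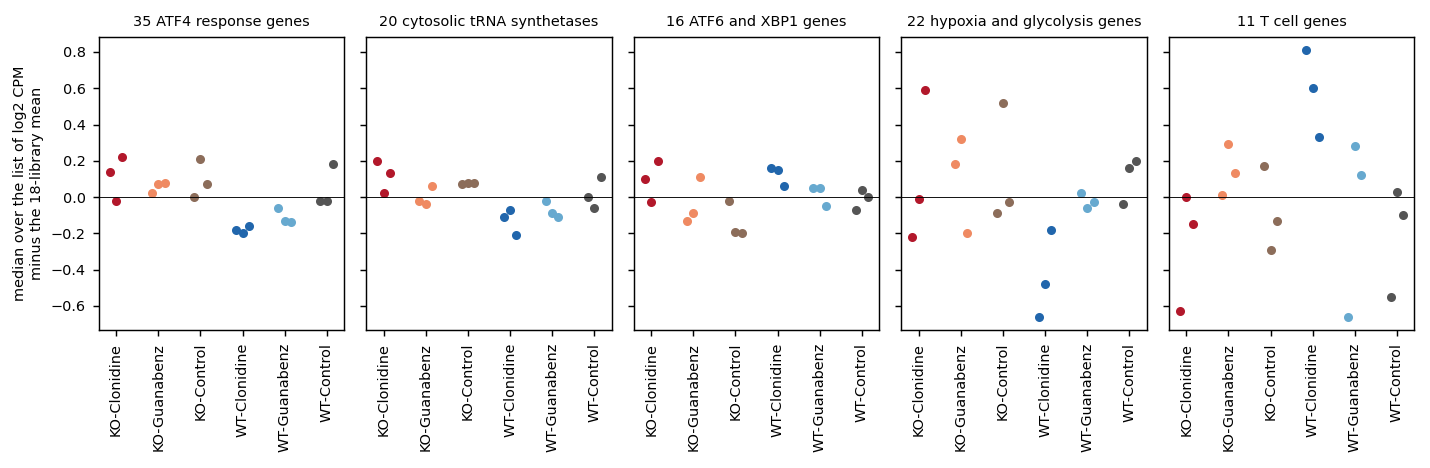
Each dot is 1 library and the vertical axis the median over a gene list of log2 CPM minus the mean over 18 libraries, for the 35 members, 20 synthetases, 16 ATF6 and XBP1 genes, 22 hypoxia and glycolysis genes and 11 T cell genes. The members' WT-Clonidine dots, at -0.18, -0.20 and -0.16, are the lowest of their panel; the same libraries are highest for T cell genes, at 0.81, 0.60 and 0.33, and include the lowest dots for hypoxia, at -0.66 and -0.48.

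Members were also split by the C/EBP-ATF response element in the promoter window. In KO-Clonidine against WT-Clonidine the 9 members with the element had a median log2 change of 0.27 with 3 called (Asns, Chac1 and Trib3), and the 20 with a window but without it a median of 0.29 with 8 called. In WT-Clonidine against WT-Control the medians were -0.32 (0 of 9 above 0) and -0.25 (3 of 20 above 0). The medians lay farther apart, at 0.27 with the element and 0.08 without it, in KO-Guanabenz against WT-Guanabenz. They were -0.24 and -0.12 in WT-Guanabenz against WT-Control, and 0.34 and 0.11 in the difference of the guanabenz effects, KO minus WT. These comparisons all use the same WT-Guanabenz libraries. The medians were closer in KO-Guanabenz against KO-Control (0.03 and -0.05) and in WT-Clonidine against WT-Guanabenz (-0.18 and -0.1). No test was made of this split, and an element farther from the start or spelled otherwise would not have been found.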

How the data were processed

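The authors deposited estimated counts of each gene in 18 libraries, made with Trim Galore 0.6.5 and kallisto 0.46.0 on GRCm38, per the submitters' processing notes; the step from transcripts to genes and the library strand are not given in the sources used here. kallisto splits reads between similar transcripts, so a gene with a near-identical copy or an overlapping antisense gene is uncertain to that extent. The values are whole numbers as deposited. Symbols were found for 20994 of 21015 identifiers through RefSeq (GRCm38.p6), with the older synthetase symbols used by that table, and the other 21 identifiers held at most 0.0216% of a library's counts. Gene coordinates and transcript lengths came from an annotation of the same build.

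One edgeR fit (edgeR 4.0.16 under R 4.3.3) held the 18 libraries and a mean for each group, with filterByExpr, TMM factors of 0.957 to 1.046, the quasi-likelihood test, 2-sided, with Benjamini-Hochberg adjustment over 16125 genes in each of 11 comparisons and a call at adjusted p under 0.05. The fit had 12 residual and 4.35 prior degrees of freedom and a biological coefficient of variation of 0.145, which set the precision more than counting error did. The labels do not tie libraries to animals; the p-values therefore describe library-to-library spread only, some of which could be technical. Levels are CPM on TMM-scaled library sizes. Same-numbered libraries did not deviate together (correlations of -0.33 to 0.25), so replicate numbers were not used as pairs, and no 2 libraries of a group agreed within sampling noise.

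The members, lists and tests were chosen with earlier results of these data known. Each comparison gives the up to 8 members with the smallest p by library, where not already shown, the others by value, counts or range, and of each other list up to 3 genes with the smallest p. The script was tested on simulated data. Alternatives were DESeq2 1.42.0, limma-voom (limma 3.58.1), RLE or total scaling, no or a stricter filter, a replicate block, a Y-linked term, a fit of only the compared groups, each library left out in turn, and KO-Guanabenz left out or read as KO-Control.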

Additional observations from a re-analysis of the deposited data

How the results depend on the processing

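Called members were higher in KO in every alternative of KO-Clonidine against WT-Clonidine and of the average over treatments. Against 13 in KO-Clonidine over WT-Clonidine (403 genes), edgeR called 6 with library totals (249 genes, median 0.21), 6 with the Y-linked term (213 genes), 2 with the compared groups alone (4 genes) and 0 to 13 without 1 library (1 to 312 genes). Against 4 in the average (67 genes), there were 2 with totals (38 genes), 2 with the Y-linked term (69 genes), 10 with DESeq2 (618 genes), 9 with limma-voom (362 genes) and 0 to 6 without 1 library (7 to 111 genes). Against 0 in WT-Clonidine over WT-Control (0 genes), there were 11 with DESeq2 (355 genes), 12 with limma-voom (773 genes) and 0 to 3 without 1 library (0 to 55 genes). The clonidine difference between genotypes had a median of 0.22 with totals, against 0.30, and 1 member called by DESeq2. Omitting 1 library moved the median of WT-Guanabenz over WT-Control between -0.22 and -0.05 and that of KO-Clonidine over KO-Control between -0.06 and 0.12. With the replicate number as a block, 11 members were called in KO-Clonidine over WT-Clonidine (333 genes) and 4 in the average (60 genes), with no other member called. Single-member values were followed under alternatives only for members called, or among the smallest unadjusted p under 0.05, in the fit with all libraries. These members were picked for clear differences and most alternatives used largely the same libraries, so a change of sign was unlikely from the start. The count of reversals is therefore no test of how stable the members are in general. Of 1178 such single-member values 0 reversed. Of the 312 among them that belong to called members 135 (43.3%) lost the call, and 29 of the rest gained one. The cause of these shifts was not tested. With KO-Guanabenz left out, 10 members stayed called in KO-Clonidine over WT-Clonidine (220 genes), all of them among the 13. Depth limits Gdf15 and Slc7a3, whose lowest libraries held 31 and 38 counts.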

Other observations

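The part of the endoplasmic reticulum (ER) stress response that runs through ATF6 and XBP1, rather than through ATF4, was described in the same way. Its 16 genes, chaperones and degradation factors such as Hspa5 and Sel1l, lay above 0 in 16 of 16 cases in WT-Clonidine against WT-Control (median log2 change 0.14, 0 called, 4 higher by unadjusted p, beside 5.98% of all genes). In KO-Clonidine against KO-Control 15 of 16 lay above 0 (median 0.21, 0 called, 11 higher by unadjusted p, beside 2.74% of all genes). In KO-Control against WT-Control 15 of 16 lay below 0 (median -0.12, 0 called, 3 lower by unadjusted p, beside 1.43%), and in KO-Clonidine against WT-Clonidine 15 of 16 (median -0.05, 0 called, 2 lower by unadjusted p, or 12.5% beside 8.48%). These comparisons share control or clonidine libraries with one another and are given side by side only.

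Proliferation genes such as Mki67 and Cdk1 stayed near 0 in both clonidine comparisons, with a median of 0.04 over 12 genes in KO-Clonidine against WT-Clonidine and 0.04 in WT-Clonidine against WT-Control. Library KO-Control 2 had the second highest median member of the 18, at 0.21, and a hypoxia median of 0.52. Its Cth, the enzyme that makes cysteine, stood at 9.26 CPM beside 4.07 and 4.59 CPM in the other KO-Control libraries. The member and hypoxia medians were both high in KO-Clonidine 3 as well (0.22 and 0.59). They had opposite signs in other libraries, such as KO-Clonidine 1 (0.14 and -0.22) and KO-Guanabenz 3 (0.08 and -0.2).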
